A study of Mus musculus and Rattus norvegicus with 32 samples.

Results

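The genes described here are 9 interferon response genes, Ifit1, Ifit2, Ifit3, Isg15, Usp18, Irf7, Irf1, Mx1 and Ifi35, followed across mouse and rat liver after trichloroethylene (TCE). They were chosen by name: every probe set whose single annotated gene symbol was one of the 9 was kept, whatever its values. This gave 15 of 21162 probe sets on the arrays, namely 10 of 12422 in mouse, which covered all 9 genes, and 5 of 8740 in rat, which covered Irf7, Irf1 and Mx1. Irf7 had 2 probe sets in each species and Irf1 had 2 in rat; the mouse Irf7 probe sets are called here at and f_at, after the ends of their names, and probe sets of one gene were not treated as replicates.

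TCE is a chlorinated industrial solvent, and the series set the liver response of mice beside that of rats. The animals were male B6C3F1 mice, a hybrid laboratory strain, and male SD rats, an outbred laboratory stock, and all received corn oil by oral gavage. In each species, 4 samples came after 14 daily doses of 1500 mg per kg TCE in the oil at 10 weeks of age, 4 after the oil alone on that schedule, 4 after 1 such dose of TCE at 8 weeks, and 4 after 1 dose of oil. The livers were collected 18 h later, and polyA RNA was turned into biotin-labelled cRNA and hybridised to Affymetrix GeneChips, 1 array per sample and 32 in all. Separate animals are not stated for the samples, and p-values therefore reflect the variation from sample to sample, which may be technical. The deposited values are ratios: within a species and schedule, the 4 oil arrays of a probe set have a median of 1 (checked to within 0.0005 where no value was missing), which is 0 on the log2 scale. A ratio says nothing of how bright a probe set was, so no gene's level can be set against another's, and hepatocyte markers could not check the labelled tissue. Precision rests on having 4 arrays per group.

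Interferons are secreted proteins, and cells release those of type I on sensing viral or other foreign nucleic acid. Type I interferons signal through the JAK kinases to a complex containing IRF9 that binds the interferon-stimulated response element (ISRE) in promoters, while interferon gamma acts chiefly through the gamma-activated site (GAS). Resting liver carries a low tonic level of this signalling, and both hepatocytes and liver macrophages, the Kupffer cells, respond to it. Among the 9 genes, the Ifit genes, Mx1 and Isg15 encode antiviral effectors, Usp18 a feedback inhibitor, Irf7 and Irf1 transcription factors, and Ifi35 an interferon-induced leucine zipper protein.

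Mouse promoter windows from RefSeq (GRCm38.p6) were found for 7 of the 9 genes, with 9 windows in all, each running from 250 bases before an annotated start to 50 after it. Usp18 and Mx1 had no window. They were searched on both strands for the ISRE letters, GAAA and GAAA with any 2 bases between them, and, separately, for the GAS letters, TTC and GAA with any 3 bases between them. ISRE letters stood in windows of 3 of the 7 genes, Ifit1, Ifit3 and Isg15. Over all mouse windows they stood in those of 1079 of 27025 genes, and in 3.44% of the 32851 windows. GAS letters stood in windows of 3 others, Ifit2, Irf1 and Ifi35, and the Irf7 window held neither. Over all mouse windows GAS letters stood in those of 2582 of the 27025 genes, and in 8.30% of the windows. The 250 bases before the start are shown for the 3 genes with ISRE letters, since 2 of them were among the genes that fell and 1 was not, and for Irf1, which carried GAS letters and did not pass the test; capitals mark the matches, each sequence runs in the direction of its gene, and no match was taken as a bound site.
Ifit1, chr19:34640639-34640888, plus strand: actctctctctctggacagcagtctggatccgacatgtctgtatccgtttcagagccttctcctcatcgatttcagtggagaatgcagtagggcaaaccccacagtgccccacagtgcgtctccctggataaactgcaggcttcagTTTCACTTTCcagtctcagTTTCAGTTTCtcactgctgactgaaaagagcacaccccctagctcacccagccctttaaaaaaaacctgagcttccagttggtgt
Ifit3, chr19:34583279-34583528, plus strand: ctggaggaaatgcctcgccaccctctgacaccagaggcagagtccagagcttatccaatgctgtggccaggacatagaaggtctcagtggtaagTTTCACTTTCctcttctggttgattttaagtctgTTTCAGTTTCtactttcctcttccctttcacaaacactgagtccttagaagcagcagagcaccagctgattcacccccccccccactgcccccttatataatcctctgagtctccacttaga
Isg15, chr4:156200819-156201068, minus strand: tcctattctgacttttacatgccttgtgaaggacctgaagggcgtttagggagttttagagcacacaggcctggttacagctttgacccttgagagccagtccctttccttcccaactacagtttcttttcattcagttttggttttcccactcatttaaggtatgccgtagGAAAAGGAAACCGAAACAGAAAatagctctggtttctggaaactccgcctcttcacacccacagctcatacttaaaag
Irf1, chr11:53769764-53770013, plus strand: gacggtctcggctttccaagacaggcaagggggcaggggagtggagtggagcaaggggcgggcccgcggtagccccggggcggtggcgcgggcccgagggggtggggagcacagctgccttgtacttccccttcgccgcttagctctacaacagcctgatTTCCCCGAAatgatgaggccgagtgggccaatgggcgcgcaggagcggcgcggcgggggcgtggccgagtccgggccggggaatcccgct

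Ifit1 and Ifit3 carried the same pair of matches, TTTCACTTTC followed by TTTCAGTTTC, which read as ISRE letters on the opposite strand. They lay 104 to 95 and 85 to 76 bases before the start in Ifit1, and 156 to 147 and 122 to 113 bases before it in Ifit3. In Isg15 3 overlapping matches, GAAAAGGAAA, GAAACCGAAA and GAAACAGAAA, filled the stretch from 78 to 57 bases before the start. The Irf1 match, TTCCCCGAA, lay 90 to 82 bases before its start. Ifit2 and Ifit3 are neighbouring coding genes on chromosome 19, where Ifit1 also lies.

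**Figure D1:**
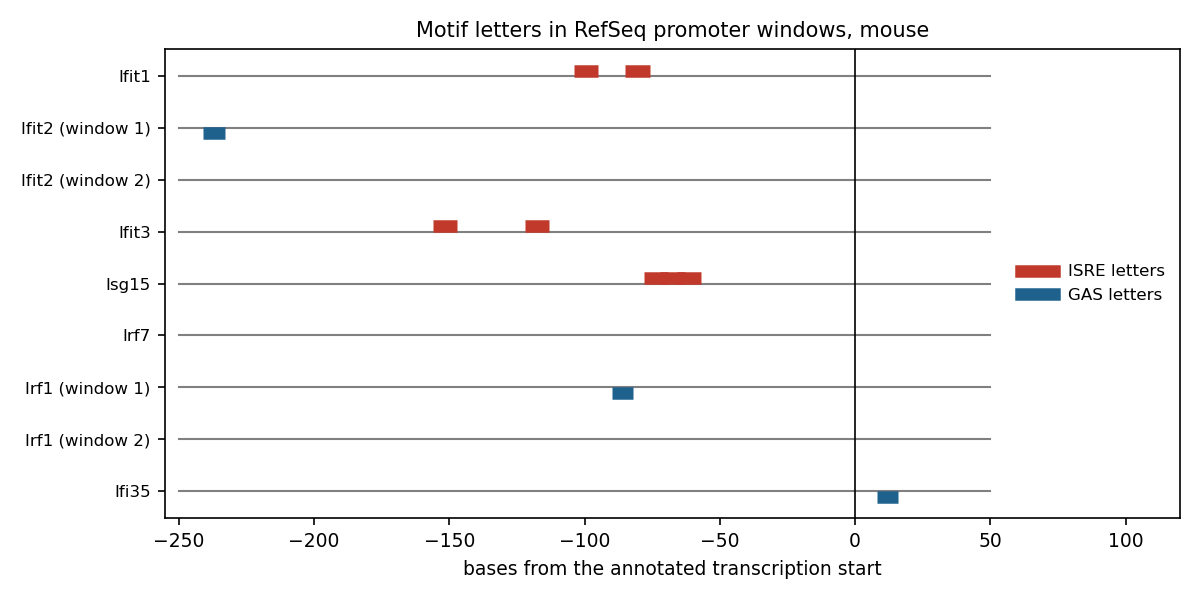
Positions of ISRE letters (red) and GAS letters (blue) in the 9 RefSeq promoter windows of mouse genes, with bases from the annotated transcription start on the x axis and a window per row. ISRE letters appear in the windows of Ifit1, Ifit3 and Isg15, all within 156 bases of the start, and GAS letters in those of Ifit2, Irf1 and Ifi35.

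Part of this gene set was lower in mouse liver after repeated TCE. After 14 daily doses, Ifit1, Usp18, Ifit3 and 1 of the 2 Irf7 probe sets were 3.24-fold to 7.02-fold lower in TCE livers than in oil livers, while Ifit2, Isg15, Irf1, Ifi35 and the f_at Irf7 probe set did not pass the test. This made 4 of 10 mouse probe sets lower and 0 higher at a limma adjusted p under 0.05, where 8.48% of all 12422 were called lower, 2.24% higher and 10.7% in either direction. At unadjusted p under 0.05 it was 5 of 10, against 27.5% of all probe sets in limma. All 4 TCE arrays lay below all 4 oil arrays for 3 of the 10, against 12.4% of all probe sets, and above them for 0 of the 10, against 4.6%. The median log2 change of the 10 was -0.90, against -0.15 over all probe sets. After 1 dose, 0 of 10 passed the test, where limma called 8.3% of all probe sets, 4.14% lower and 4.16% higher, and 0 of 10 had an unadjusted p under 0.05, against 24.2% of all. Bulk liver RNA cannot tell fewer cells of a type apart from less RNA per cell.

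**Figure D2:**
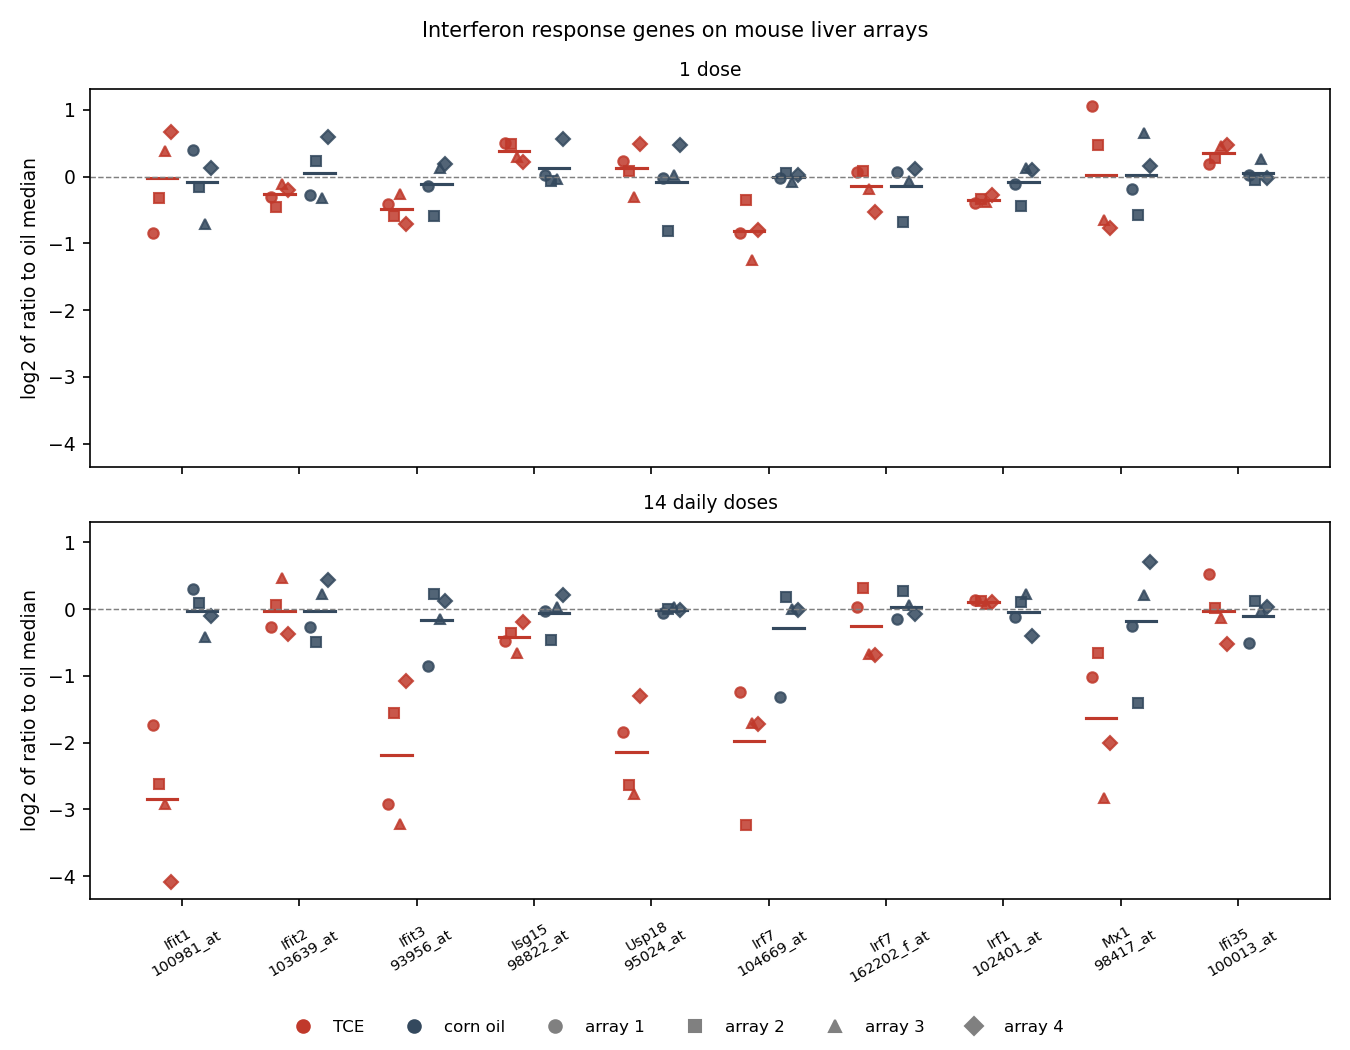
Log2 of the ratio to the oil median (y axis) for the 10 mouse probe sets, on 4 TCE (red) and 4 corn oil (blue) arrays after 1 dose (top) and 14 daily doses (bottom). Marker shapes give the array number, which does not link a TCE array to an oil array, and bars are group means; Ifit1, Ifit3 and Usp18 are the probe sets whose TCE arrays all lie below their oil arrays after 14 doses.

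Ifit1 encodes an RNA-binding protein that holds back translation of viral messages lacking host cap methylation. After 14 doses its ratios were 0.299, 0.163, 0.132 and 0.0588 on the TCE arrays, against 1.24, 1.06, 0.748 and 0.936 on the oil arrays. Every TCE array was below every oil array, and TCE array 4 was the lowest of them. The change was -2.81 ± 0.44 (log2 ± SE, n = 4 and 4, limma adjusted p = 0.0026), the 20th lowest of 12422 probe sets. The single-dose TCE arrays gave 0.558, 0.799, 1.31 and 1.59 and the oil arrays 1.32, 0.902, 0.614 and 1.1. Those groups overlapped over almost their full range, with a log2 change of 0.05 ± 0.44 (limma adjusted p = 0.964).

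Ifit3 encodes a partner protein that stabilises the Ifit complex. Its near-identical copies in the mouse genome may bind the same probes, so its values may include them. After 14 doses the ratios were 0.132, 0.341, 0.107 and 0.476 on the TCE arrays, against 0.553, 1.17, 0.907 and 1.09 on the oil arrays. The groups did not overlap, although the highest TCE array and the lowest oil array lay close together. The log2 change was -2.03 ± 0.41 (n = 4 and 4, limma adjusted p = 0.00867). Single-dose ratios were 0.754, 0.664, 0.836 and 0.609 with TCE and 0.911, 0.666, 1.09 and 1.14 with oil, and all 4 TCE arrays lay below the oil median of 1. That change, -0.39 ± 0.41, did not pass the test (limma adjusted p = 0.612).

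Ifit2 encodes a related protein that also limits translation and promotes apoptosis in infected cells. It gave ratios of 0.834, 1.05, 1.38 and 0.77 with TCE and 0.834, 0.709, 1.17 and 1.35 with oil after 14 doses. The groups covered nearly the same range, and the log2 change was 0.00 ± 0.26 (limma adjusted p = 0.999). With 1 dose, TCE arrays spanned 0.731 to 0.925 and the oil arrays 0.801 to 1.5, with a change of -0.32 ± 0.26 (limma adjusted p = 0.484). Ifit2 therefore gave no call beside its neighbour Ifit3; the difference between these genes was not tested.

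Usp18 removes Isg15 from proteins and blocks signalling at the type I interferon receptor. After 14 doses its ratios were 0.278, 0.161, 0.146 and 0.407 on the TCE arrays, against 0.959, 1.0, 1.02 and 0.996 on the oil arrays. The oil arrays were all between 0.959 and 1.02, and every TCE array was far below them. The log2 change was -2.13 ± 0.32 (n = 4 and 4, limma adjusted p = 0.00234). Ratios after 1 dose were 1.18, 1.06, 0.813 and 1.41 with TCE and 0.984, 0.566, 1.02 and 1.39 with oil. The groups overlapped, and the change of 0.22 ± 0.32 did not pass the test (limma adjusted p = 0.738).

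Isg15 is an interferon-induced ubiquitin-like protein that becomes attached to many cellular and viral proteins. After 14 doses its ratios were 0.716, 0.779, 0.635 and 0.877 with TCE and 0.981, 0.727, 1.02 and 1.16 with oil. All 4 TCE arrays were below the oil median, but oil array 2 lay among them, and the log2 change of -0.36 ± 0.18 did not pass the test (limma adjusted p = 0.224). With a single dose they were 1.42, 1.41, 1.23 and 1.17 with TCE and 1.02, 0.959, 0.98 and 1.48 with oil. Here all TCE arrays were above the oil median and oil array 4 was above them all, with a change of 0.25 ± 0.18 (limma adjusted p = 0.441).

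Irf7 is the factor that amplifies type I interferon transcription and is itself induced by interferon. On the at probe set the 14-dose ratios were 0.421, 0.106, 0.308 and 0.303 with TCE, against 0.403, 1.14, 1.01 and 0.994 with oil. Oil array 1 stood apart from the other oil arrays and fell inside the TCE range. The log2 change was -1.70 ± 0.39 (n = 4 and 4, limma adjusted p = 0.0168), and -2.04 without that array. The ratios after 1 dose were 0.554, 0.785, 0.42 and 0.573 with TCE and 0.982, 1.04, 0.944 and 1.02 with oil. All TCE arrays were below all oil arrays, which held for 1 of the 10 probe sets and 9.62% of the whole array (0 of 10 and 7.96% the other way), but the change of -0.81 ± 0.39 did not pass the test (limma adjusted p = 0.227).

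The f_at probe set of Irf7 bears a suffix that marks probes shared with related sequences. Its 14-dose ratios were 1.02, 1.24, 0.625 and 0.62 with TCE and 0.905, 1.20, 1.05 and 0.954 with oil. Both groups overlapped, with a log2 change of -0.29 ± 0.25 (limma adjusted p = 0.499) and of 0.00 ± 0.25 after 1 dose. The Irf7 probe sets of the mouse array thus disagreed, and the call for Irf7 rests on the at probe set.

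Irf1 is a factor induced chiefly by interferon gamma that switches on antigen presentation and antiviral genes. Its 14-dose ratios were 1.1, 1.09, 1.05 and 1.08 with TCE and 0.926, 1.07, 1.17 and 0.76 with oil. The TCE arrays were nearly identical and lay inside the oil range, with a log2 change of 0.16 ± 0.16 (limma adjusted p = 0.559). After 1 dose the TCE arrays, 0.761, 0.794, 0.769 and 0.828, were again close together and below the oil median, while the oil arrays gave 0.926, 0.734, 1.09 and 1.07. The change of -0.26 ± 0.16 did not pass the test (limma adjusted p = 0.344).

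Mx1 encodes a dynamin-like GTPase that blocks influenza viruses. Most inbred mouse strains carry a defective copy, and RefSeq lists the gene of its reference strain as a transcribed pseudogene. After 14 doses its ratios were 0.494, 0.635, 0.14 and 0.249 with TCE and 0.84, 0.378, 1.16 and 1.64 with oil. All 4 TCE arrays were below the oil median, but oil array 2 lay between them, and the log2 change of -1.45 ± 0.56 did not pass the test (limma adjusted p = 0.107). The single-dose ratios ran from 0.585 to 2.08 with TCE and from 0.674 to 1.58 with oil, with a change of 0.01 ± 0.56.

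Ifi35 had 14-dose ratios of 1.44, 1.01, 0.915 and 0.698 with TCE and 0.704, 1.09, 0.976 and 1.02 with oil. These overlapped fully (log2 change 0.07 ± 0.21, limma adjusted p = 0.861). After 1 dose the TCE arrays, 1.14, 1.21, 1.37 and 1.39, were all above the oil median, and 3 were above every oil array, whose values ran from 0.962 to 1.21. The change of 0.30 ± 0.21 did not pass the test (limma adjusted p = 0.416).

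**Figure D3:**
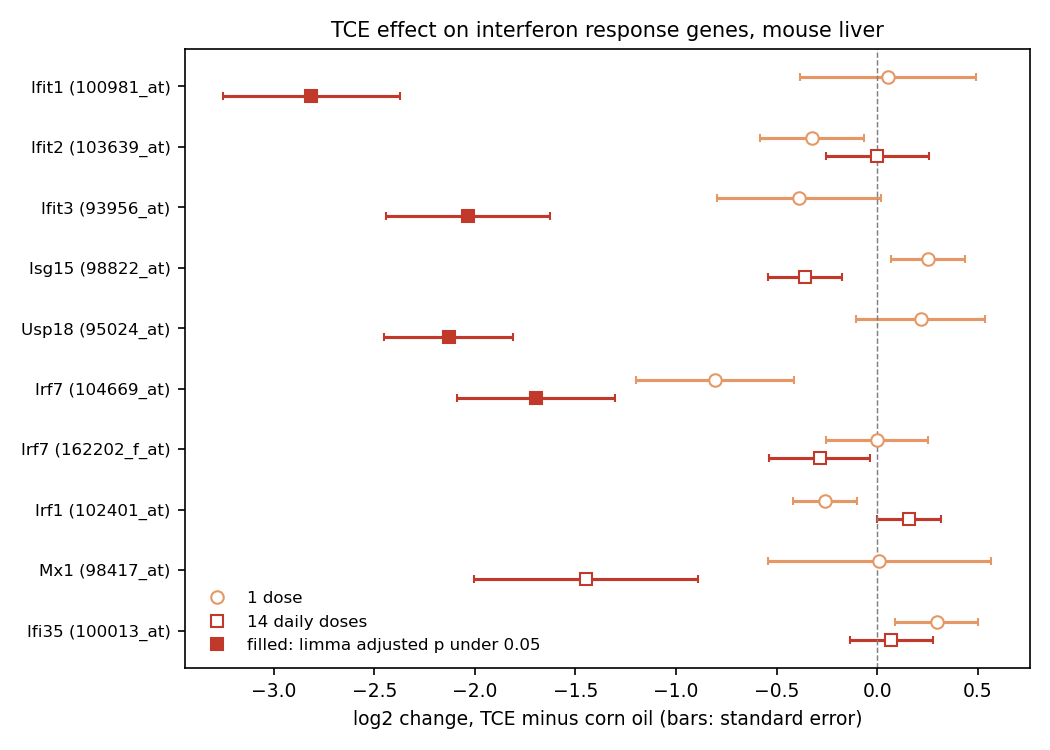
Log2 change, TCE minus corn oil (x axis), with its standard error for each mouse probe set after 1 dose (circles) and 14 daily doses (squares); filled markers have a limma adjusted p under 0.05. The filled markers are those of Ifit1, Ifit3, Usp18 and Irf7 (at) after 14 doses, from -2.81 to -1.70, and no marker is filled after 1 dose.

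Whether the TCE effect itself changed between the schedules was tested as the effect after 14 doses minus the effect after 1 dose. Each schedule had its own oil arrays. For Ifit1 this difference was -2.87 ± 0.62 (log2, limma adjusted p = 0.0464, interval at 95% from -4.19 to -1.54). For Usp18 it was -2.35 ± 0.45 (limma adjusted p = 0.0415, interval from -3.32 to -1.37). These were 2 of 10 mouse probe sets, where 0.668% of all were called below 0 and 0.877% in either direction. For Ifit3 the difference was -1.64 (limma adjusted p = 0.143, interval from -2.88 to -0.41) and for Mx1 -1.46 (limma adjusted p = 0.338, interval from -3.14 to 0.23). For Irf7 on the at probe set it was -0.89 (limma adjusted p = 0.408, interval from -2.08 to 0.30), so that its change after 14 doses was not shown to exceed that after 1 dose. Both calls stood near the threshold: leaving out single arrays, 1 at a time over all 16, left 0 or 1 of the 2, and quantile normalization left 0.

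The 4 calls after 14 doses depended on how arrays were scaled and on which arrays were kept. With quantile normalization in place of the deposited scaling, all 4 kept their direction and none passed the test. There Ifit1 gave -2.28 (limma adjusted p = 0.119), Usp18 -1.61 (adjusted p = 0.0873), Ifit3 -1.58 (adjusted p = 0.218) and Irf7 -1.23 (adjusted p = 0.261), and only 7 of all 12422 probe sets were called, against 1331. Centring each array on its median, which removed a shift of -0.16 of all probe sets on these TCE arrays, left all 4 called. With only the 8 arrays of this comparison in the fit, Ifit1 and Usp18 were called.

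Control probe sets at the ends of Gapdh track shortening of transcripts. Their values are also ratios to the oil median, so they show loss only relative to the oil arrays of a schedule. Arrays whose 3' end exceeded the 5' end by more than 1 (log2) are called arrays of 5' loss here. The log2 value of the 3' end minus the 5' end exceeded 1 on 3 of 4 TCE arrays and 1 of 4 oil arrays after 14 doses in mouse, the means differing by 0.78 (two-sided exact permutation p = 0.371, where 0.0286 is the smallest that 4 against 4 arrays allow). Other array controls separated these groups further. The hybridization spikes, bacterial and phage control transcripts that standard protocols add to the hybridization mix, averaged -1.30 to -1.03 (log2) on the TCE arrays and -0.64 to 0.61 on the oil arrays, a difference of -1.15 with no overlap (exact p = 0.0286). The 3' minus 5' value of beta-actin differed by 0.72 (exact p = 0.0571). Over the 16 control comparisons made, the smallest adjusted exact p was 0.0762, held by comparisons at the smallest possible exact p of 0.0286. It cannot separate weak from strong control differences, since 4 against 4 arrays allow no smaller exact p. The part of the spike difference in the interferon results was not tested. The oil array with a Gapdh value above 1 was array 1, the one with the low Irf7 and Ifit3 ratios. TCE array 1 had a Gapdh value of -0.36, and so no loss beyond the oil arrays, which ran from -0.24 to 1.46. Even so, its spikes were the lowest at -1.30. Its ratios were 0.299 for Ifit1, 0.278 for Usp18, 0.132 for Ifit3 and 0.421 for Irf7. Set alone against the other 3 oil arrays, that array gave -2.99 for Ifit3, -1.86 for Usp18, -1.60 for Ifit1 and -1.31 for Irf7. The spread in this fit came from oil arrays alone, so no p-value is given. With the Gapdh value as a covariate all 4 were called, and Irf7 gave -1.26. Without the arrays above 1, only TCE array 1 remained after 14 doses and only TCE array 2 after 1 dose. The difference between schedules was then -1.36 for Ifit1 and -2.03 for Usp18. No call can be read from a fit with so few TCE arrays. With a single dose, 3 TCE arrays and 0 oil arrays had a Gapdh value above 1, a difference of 1.54 (exact p = 0.0571). Beta-actin differed by 0.76 and the spikes by -0.62, both with no overlap between TCE and oil arrays (exact p = 0.0286 each). The Irf7 change after 1 dose with the Gapdh covariate was 0.05 in place of -0.81. TCE array 2, with a Gapdh value of 0.09, had the Irf7 ratio nearest to the oil arrays, 0.785.

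**Figure D4:**
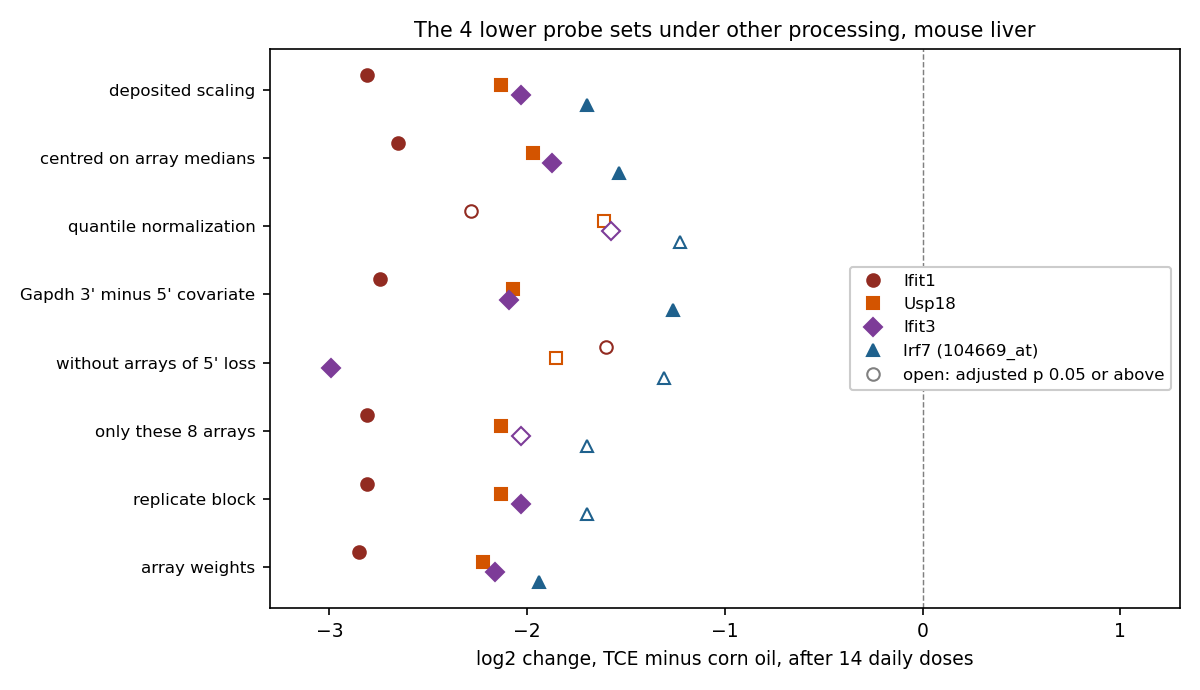
Log2 change, TCE minus corn oil after 14 daily doses (x axis), of Ifit1, Usp18, Ifit3 and Irf7 (at) under the deposited scaling and 7 other ways of processing, a row each; open markers have an adjusted p of 0.05 or above. Every value lies below 0, from -2.99 to -1.23, and the markers are all open with quantile normalization. In the row without arrays of 5' loss only TCE array 1 remained, so its markers are not read as calls.

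In rat liver none of the 5 probe sets passed the test on either schedule. The count was 0 of 5 after 1 dose, where limma called 1.72% of all 8740 (0.503% lower), and 0 of 5 after 14 doses, where it called 2.81% (0.652% lower), and 0 of 5 had an unadjusted p under 0.05 on either schedule, against 19.2% and 18.9% of all probe sets after 1 and 14 doses. The median log2 change of the 5 was -0.13 after 1 dose, against 0.14 over all probe sets, and -0.26 after 14 doses, against 0.04. All TCE arrays lay below all oil arrays for 0 of the 5 on each schedule, against 3.72% and 4.79% of all probe sets after 1 and 14 doses, and above them for 0 of the 5, against 8.79% and 7.52%. The smallest limma adjusted p was 0.373 after 1 dose and 0.388 after 14 doses. The difference between the schedules called 0 of 5 members in limma, and 0% of all probe sets.

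Rat Irf7 had 2 probe sets that gave similar values. After 14 doses rc_AA799861_at had ratios of 1.24, 0.859, 0.594 and 0.894 with TCE and 0.849, 1.27, 1.15 and 0.647 with oil. Those groups overlapped, with a log2 change of -0.13 ± 0.30, and rc_AA799861_g_at gave -0.37 ± 0.33. After 1 dose the first had 0.778, 0.88, 0.649 and 0.671 with TCE and 0.98, 1.72, 0.695 and 1.02 with oil, a change of -0.50 ± 0.30. The second had 0.776, 0.574, 0.655 and 0.631 with TCE and 0.895, 1.71, 0.432 and 1.1 with oil, a change of -0.50 ± 0.33. All TCE arrays lay below the oil median on both, and oil array 3 lay within their range on the first and below it on the second.

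Rat Irf1 also had 2 probe sets. After 14 doses M34253_at had ratios of 0.969, 0.814, 0.718 and 0.685 with TCE and 1.02, 1.3, 0.94 and 0.98 with oil. There 3 TCE arrays lay below every oil array, and the log2 change was -0.41 ± 0.25 (limma adjusted p = 0.388). The second, M34253_g_at, gave 0.75, 0.866, 1.13 and 0.762 with TCE and 0.959, 1.20, 0.964 and 1.04 with oil, a change of -0.26 ± 0.26. The changes after 1 dose were 0.06 ± 0.25 and -0.03 ± 0.26, with TCE arrays from 0.671 to 1.68 and oil arrays from 0.848 to 1.58 over both probe sets.

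Rat Mx1, which encodes a functional antiviral protein in that species, had 14-dose ratios of 2.19, 1.20, 1.1 and 1.98 with TCE and 1.02, 1.92, 0.868 and 0.983 with oil. All TCE arrays were above the oil median and 2 were above every oil array, with a log2 change of 0.45 ± 0.37 that did not pass the test (limma adjusted p = 0.554). Ratios after 1 dose were 0.755, 1.06, 1.20 and 0.801 with TCE and 0.823, 1.96, 0.585 and 1.18 with oil, a change of -0.13 ± 0.37.

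**Figure D5:**
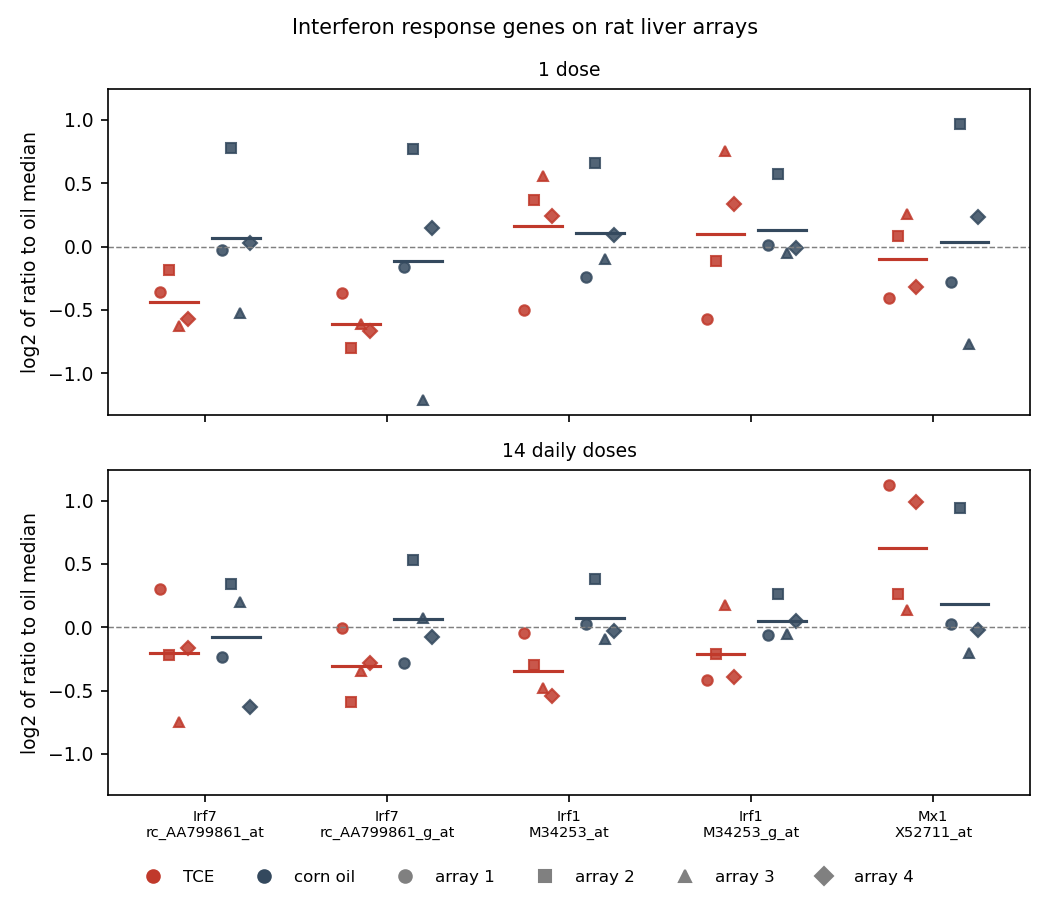
Log2 of the ratio to the oil median (y axis) for the 5 rat probe sets, on 4 TCE (red) and 4 corn oil (blue) arrays after 1 dose (top) and 14 daily doses (bottom), with group means as bars and array numbers as marker shapes. TCE and oil arrays overlap for every probe set, and oil array 2 lies above the oil median on all 5 in both panels.

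Single oil arrays stood apart in rat. Oil array 2 was above the oil median for 5 of 5 probe sets on both schedules, with a mean log2 ratio of 0.49 over the 5 after 14 doses and 0.75 after 1 dose. Oil array 3 of the single dose was below it for 5 of 5, with a mean of -0.53. Array numbers link no arrays across schedules. With any 1 of the 8 arrays of a schedule left out, 0 of 5 rat probe sets were called in limma.

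Only Irf7, Irf1 and Mx1 could be compared between the species, as mouse effect minus rat effect over 3056 shared genes. After 14 doses this difference was -1.89 ± 0.68 for Mx1 (log2, limma adjusted p = 0.0727, interval at 95% from -3.28 to -0.50), 0.57 ± 0.29 for Irf1 (adjusted p = 0.201, interval from -0.02 to 1.17) and -0.16 ± 0.39 for Irf7 (adjusted p = 0.826). None of the 3 was called, where 10.5% of shared genes were. The Irf7 value used the mouse probe set with the smaller spread, f_at, and with the at probe set in its place it was -1.57 (limma adjusted p = 0.0406), a call. Mx1 was called when mouse TCE array 2, mouse oil array 2 or rat oil array 2 was left out, and its difference ran from -2.30 to -1.49 over all 16 arrays left out in turn. The single-dose differences were 0.14 ± 0.68 for Mx1, -0.32 ± 0.29 for Irf1 and 0.50 ± 0.39 for Irf7, none of them called in limma, where 4.22% of shared genes were. The intervals are wide: after 1 dose that of Mx1 ran from -1.25 to 1.54.

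Other genes of the pathway were taken from lists of ligands, receptors, signalling proteins, factors, sensors, effectors and regulators, 111 genes without the 9 above, of which 75 were measured in mouse and 31 in rat. Every listed gene was read on its probe set with the smallest spread within groups. The shares of all probe sets given beside these counts include the noisier ones, so they are not like for like. After 14 doses 11 of the 75 mouse genes were lower and 0 higher in TCE livers at a limma adjusted p under 0.05, beside the 8.48% of all probe sets called lower, and their median log2 change was -0.44. Of 9 guanylate-binding proteins and immunity-related GTPases 4 were lower, Irgm1, Igtp, Ifi47 and Irgm2. Of 11 antiviral effectors 2 were lower, Rsad2 and Ifi27l2a, of 10 antigen presentation genes 1, B2m, and of 6 other induced genes 2, Nmi and Lgals3bp. Of 4 signalling genes 1 was lower, Irf9, the DNA-binding subunit of the ISRE complex, at -0.64, and of 5 other IRF factors 1, Irf5, at -0.57. No gene was called among 9 ligands, 4 receptors, 3 nucleic acid sensors, 7 PYHIN and TRIM genes, 2 chemokines and 5 negative regulators.

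Irgm1, a GTPase that directs clearance of intracellular pathogens, had ratios of 0.197, 0.197, 0.461 and 0.287 with TCE and 0.696, 1.01, 1.03 and 0.991 with oil (log2 change -1.78 ± 0.30, limma adjusted p = 0.00369). Igtp, a GTPase of the same family, had 0.476, 0.574, 0.499 and 0.514 with TCE and 0.734, 1.14, 1.13 and 0.872 with oil (-0.89 ± 0.17, adjusted p = 0.00627). For Irgm1, Igtp, Rsad2 and Nmi every TCE array lay below every oil array. These genes were picked for the largest changes past the threshold in this same comparison, a choice that favours such separation. The 12.4% of all probe sets with that separation is therefore not a like-for-like share, and no enrichment is read from it. Rsad2, which encodes the antiviral enzyme viperin, had 0.734, 0.636, 0.429 and 0.311 with TCE and 0.838, 1.46, 0.978 and 1.02 with oil (-1.07 ± 0.26, adjusted p = 0.0201). Nmi, a partner of Ifi35, had 0.52, 0.42, 0.587 and 0.602 with TCE and 0.789, 0.992, 1.12 and 1.01 with oil (-0.88 ± 0.19, adjusted p = 0.012), so that Nmi was called in limma and Ifi35 was not. These counts share the limits of the 9 genes: 0 of the 75 were lower with quantile normalization and 5 with centring on array medians. Without the arrays of 5' loss too few TCE arrays remained for a count.

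After 1 dose in mouse, with 4.14% of all probe sets called lower and 4.16% higher, 1 of 75 was lower and 0 higher. This was Ifitm3, which blocks viral entry at membranes, with ratios of 0.732, 0.64, 0.623 and 0.64 with TCE and 1.01, 0.992, 0.989 and 1.08 with oil (-0.63 ± 0.18, limma adjusted p = 0.0467, and 0.448 with the Gapdh covariate), a call that was lost whichever 1 of the 8 arrays was left out. In rat, 2 of 31 were higher and 0 lower after 1 dose, beside 1.21% of all probe sets called higher. Ifng, which encodes interferon gamma, had 1.90, 4.22, 2.09 and 2.27 with TCE and 0.779, 1.55, 1.1 and 0.904 with oil on 1 of its 2 probe sets (1.25 ± 0.29, limma adjusted p = 0.048), and the other was not called. Cxcl10, a chemokine that interferon gamma induces, had 1.75, 1.60, 2.88 and 1.93 with TCE and 1.05, 1.11, 0.569 and 0.954 with oil (1.16 ± 0.27, adjusted p = 0.048). Leaving out any 1 of the 8 arrays ended both calls, as did centring and quantile normalization. After 14 doses in rat 1 of 31 was higher, Ptpn2, a phosphatase that acts on JAK kinases, at 1.03 ± 0.23 (adjusted p = 0.0282) on 1 of its 2 probe sets, with 2.16% of all called higher. Its call was lost without TCE array 1, TCE array 4, oil array 1 or oil array 3, with quantile normalization, with only the compared groups in the fit (adjusted p = 0.0989), with the Gapdh covariate (adjusted p = 0.152) and without the arrays of Gapdh above 1 (adjusted p = 0.173). On that schedule 2 rat TCE arrays and 0 oil arrays had a Gapdh value above 1, a difference of 1.08 (exact p = 0.0571).

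Markers of liver cell types were set beside these results, since the samples were liver tissue of mixed cells. Each marker was likewise read on its probe set with the smallest spread within groups. After 14 doses in mouse, where 8.48% of all probe sets were called lower, 2 of 12 macrophage markers were lower, with a mean log2 ratio of -0.80 to -0.47 on TCE arrays and -0.66 to 0.22 on oil arrays. Of 6 hepatocyte markers 2 were lower, with means of -0.71 to -0.54 and -0.24 to 0.20, and of 6 endothelial markers 1 was lower, with means of -0.53 to -0.23 and -0.14 to 0.12 in the same order. Among 3 plasmacytoid dendritic cell, 10 T and NK cell, 5 B cell, 6 neutrophil and 7 stellate cell markers 0 were called in limma, and the means differed between TCE and oil by -0.15 to 0.04. In the other comparisons limma called 1 of 6 hepatocyte markers lower in mouse after 1 dose and 1 of 2 endothelial markers lower in rat after 14 doses, where the endothelial means differed by -0.71, and no other marker. Macrophage means differed by -0.32 in mouse after 1 dose. The other types there ran from -0.45 (stellate) and -0.44 (neutrophil) to 0.35 (plasmacytoid dendritic). In rat macrophage means differed by -0.44 after 1 dose, with other types from -0.27 to 0.37. After 14 doses in rat they differed by -0.32, with other types from -0.71 to 0.26. Whether the defining markers of any type were near 0 cannot be read from ratios, and the part of these cell types in the interferon results was not tested.

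Values of other genes over the 16 mouse arrays were set beside those of the 4 called mouse probe sets. Likeness was the mean absolute difference in log2 ratio from the mean of the 4 probe sets, whose own mean distance from 0 was 0.743, and 8242 genes that are not among the 9 were ranked by it. The nearest were Stx6 at 0.239, Itih4 at 0.320 and Vamp5 at 0.327. Stx6 and Vamp5 encode membrane fusion proteins, and Itih4 a plasma protein made by hepatocytes. Among the 4 themselves the distance was 0.281 for Usp18, 0.367 for Ifit3, 0.410 for Irf7 and 0.432 for Ifit1. Stx6 lay closer to their mean than any of them, but it was picked as the nearest of 8242 genes. Shared regulation was not tested. Stx6 had ratios of 0.209, 0.0991, 0.161 and 0.598 with TCE and 0.668, 1.12, 0.895 and 1.11 with oil after 14 doses. In rat, where no probe set was called, the nearest of 4733 genes to the mean of the 5 were Myl12b at 0.153, Acp5 at 0.178 and Rab38 at 0.180, with 0.240 as the mean distance of that profile from 0.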

How the data were processed

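Liver RNA of 32 samples was measured on Affymetrix arrays, 4 in each of 8 groups of species, schedule and treatment. Signals came from MAS5, per the submitters' processing notes, with no version stated. The deposited values are ratios. Where a probe set had no missing value, its oil arrays had a median that differed from 1 by at most 0.0005; this was read off the deposited ratios, and how the authors divided or scaled them is not given in the sources at hand. Brightness was therefore not used to filter or weight a value.

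Control probe sets (66 in mouse, 59 in rat) were left out. Names came from the platform annotation where a probe set had 1 symbol, which held for 10833 mouse and 7006 rat probe sets, while 396 and 308 had several and 1193 and 1426 none. Log2 ratios, with no pseudocount or filter, were fitted with limma 3.58.1 (lmFit, eBayes) in R 4.3.3, with 1 coefficient per group across the 16 arrays of a species, or all 32 between species, and Benjamini-Hochberg adjustment over all probe sets or shared genes at a threshold of 0.05. Between species, and for pathway and marker lists and likeness, the probe set with the smallest spread within groups stood for a gene. Array controls were compared with exact permutation tests. The limma fit within each species was tested on simulated data. Plots used matplotlib 3.10.9 (Python 3.11.15).

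The 9 genes, the pathway and marker lists and the tests were chosen with earlier results of these data known. All 9 genes were named. From the pathway lists, up to 4 genes per comparison and direction were described, those with the largest changes past the threshold; the others past it are named in the counts. The 3 genes most like the set were taken by mean absolute difference. Equal values between any pair of replicates made up at most 0.00224 of the probe sets (as a fraction), so each array was kept as its own sample. The fits were repeated after quantile normalization, with arrays centred on their medians, with log2 of the ratio plus 1, on the compared groups alone, with array weights, with the array number as a block, with the Gapdh value as a covariate, without arrays of Gapdh 5' loss, without the 40% of probe sets with the largest spread, between species with probe sets of a gene averaged, and without each array in turn.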

Additional observations from a re-analysis of the deposited data

Results flagged for a closer look

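In the reported fit, the TCE effect in mouse differed between the schedules for 2 genes of the set, by a test of the difference itself. The same test called 0.877% of all mouse probe sets. These calls were not stable: leaving out any single array left 0 or 1 of them, and quantile normalization or the replicate block left 0. The effect after 14 doses minus that after 1 dose was -2.866 (log2) for Ifit1 and -2.346 for Usp18, with limma adjusted p-values of 0.0464 and 0.0415.

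Of 60 groups of 4 arrays examined, 3 had an array far from the rest by Dixon's criterion. This is no more than the 1 in 20 or so that chance gives. Mouse oil array 1 of the 14-dose schedule was the lowest of its group for Irf7 on the at probe set, with a ratio of 0.403, and it is also the oil array with a Gapdh 3' minus 5' value of 1.46. Mouse oil array 4 of the single dose was the highest of its group for Isg15, at 1.482. Rat oil array 2 of the single dose was the highest of its group for Irf1 on M34253_g_at, at 1.485, and it was above the oil median for all 5 rat probe sets of the set.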

How the results depend on the processing

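After 14 doses in mouse, 4 members were called in the reported fit, 0 with quantile normalization and 2 with only the groups compared. Only Usp18 was called without the noisiest 40% of probe sets, a filter that removed Ifit1, Ifit3 and Irf7 (at) themselves. With single arrays left out 3 to 4 were called, and Irf7 was lost without oil array 2 (limma adjusted p = 0.0521). For the difference between schedules in mouse, the 2 calls became 1 with centring, with log2(ratio + 1) and without the noisiest probe sets. They became 0 with quantile normalization, and 0 to 1 with single arrays left out. Without the arrays of 5' loss too few TCE arrays remained on each schedule for a call to be read. Array numbers did not pair the samples (correlations of same-numbered arrays of -0.17 to 0.08, best with their own number in 5 of 16); with the replicate block 3 of 4 mouse calls after 14 doses remained, Irf7 had limma adjusted p = 0.083, and 0 differences between schedules were called. Between species after 14 doses, 0 calls became 1 with the other mouse Irf7 probe set, an alternative chosen after the data were seen, and 0 to 1 with single arrays left out. In all other comparisons 0 members were called under every setting run. Over all mouse probe sets after 14 doses, 1331 calls became 7 with quantile normalization, 388 with the groups compared only and 264 with the block. With single arrays left out they became 687 to 1271. The 109 differences between schedules became 0 with quantile normalization, 672 without the noisiest probe sets and 21 to 118 with single arrays left out. The 11 pathway genes lower after 14 doses in mouse became 0 with quantile normalization, 5 with centring and 2 with the block. They became 1 with the groups compared only and 18 without the noisiest probe sets. With single arrays left out they became 5 to 13 (7 without TCE array 2 or oil array 4, 6 without TCE array 4, 5 without oil array 2 or 3). Calls over all features in the other comparisons ran, with no single array left out in turn, from 18 to 1520 for mouse after 1 dose (1031 reported), from 2 to 441 for rat after 1 dose (150), from 7 to 526 for rat after 14 doses (246), from 7 to 262 between species after 1 dose (129) and from 6 to 374 after 14 doses (321). Directions reversed for changes that did not pass the test in the reported fit. With the Gapdh covariate these were Ifit2 after 14 doses (-0.0144) and Irf7 after 1 dose (0.0497 on at, 0.22 on f_at) in mouse, and rat Irf7 on rc_AA799861_at after 14 doses (0.20). Without arrays of 5' loss they were mouse Ifit1 (-0.24) and Irf7 on f_at (0.22) after 1 dose, Ifit2 after 14 doses (-0.31), Ifi35 between schedules (0.27) and rat Irf7 on rc_AA799861_at (0.12). With array weights they were mouse Mx1 after 1 dose (-0.0053), Ifi35 after 14 doses (-0.0474) and rat Irf1 on M34253_at after 1 dose (-0.082). With centring they were mouse Irf7 on f_at (0.0925) and rat Irf1 on M34253_at (-0.0642) after 1 dose, and Irf7 between species after 14 doses (0.0415). With quantile normalization they were the same mouse and rat probe sets after 1 dose (0.13 and -0.20) and Irf1 between species (0.12), with log2(ratio + 1) Ifit2 after 14 doses (-0.0023), and with the other Irf7 probe set Irf7 between species after 1 dose (-0.31). With single arrays left out, the log2 change ran in mouse after 1 dose from -0.18 to 0.33 for Ifit1, -0.18 to 0.13 for Irf7 on f_at, -0.0295 to 0.40 for Usp18 and -0.33 to 0.28 for Mx1, and after 14 doses from -0.12 to 0.23 for Ifi35 and -0.16 to 0.15 for Ifit2. In rat it ran after 1 dose from -0.0683 to 0.28 for Irf1 on M34253_at, -0.25 to 0.19 for Irf1 on M34253_g_at and -0.40 to 0.18 for Mx1, after 14 doses from -0.31 to 0.054 for Irf7 on rc_AA799861_at, and between schedules from -0.17 to 0.49 for Irf7 on rc_AA799861_g_at. Between species it ran from -0.35 to 0.024 for Irf7 after 14 doses and from -0.20 to 0.41 for Mx1 after 1 dose. The cause of these changes was not tested.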
